A study of Mus musculus with 4 samples.

Results

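The genes described here encode the chaperones and folding enzymes of the endoplasmic reticulum (ER) together with Xbp1, the transcription factor of their best known regulatory arm. They were chosen by name: every gene probe of the array that carries the symbol Hspa5, Hsp90b1, Pdia4, Pdia6, Sdf2l1, Creld2, Dnajb9, Dnajc3, Calr or Xbp1 was taken, which gave 10 genes read by 12 probes, out of 30439 genes or transcripts on the array. All 10 had a signal well above background on all 4 arrays, as did 14449 genes in all.

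The study profiled liver RNA of male C57BL/6J mice on a high-fat diet (HFD) with 4 one-color Agilent arrays, each from another group formed by genotype and feeding. Cont livers came from Drp1 flox/flox littermates without Cre, which the labels call wild type. Drp1LiKO livers came from Alb-Cre Tg/+ Drp1 flox/flox mice, which the labels call knockout, and in which the albumin promoter drives Cre in hepatocytes, so that other liver cells keep the gene. The HFD began at 4 weeks of age and had lasted 24 weeks in every group according to the labels. Refed mice of either genotype had fasted for 17 h and eaten again for 4 h by the deposited sample descriptions. The methods of the paper give a slightly shorter fast before the same 4 h of refeeding. The labels of the other 2 livers give no feeding state, and the description of the series speaks only of refed mice. The paper on these data speaks of fasting for the state compared with refeeding, and its methods describe mice killed after an overnight fast. These livers are called not refed here, because the labels do not say fasted. The methods also place the collection of fasted mice in the morning and that of refed mice in the afternoon, so refeeding and time of day cannot be told apart.

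Proteins that enter the secretory pathway fold inside the ER with the help of chaperones, cochaperones and enzymes that form disulfide bonds. When unfolded proteins accumulate there, the unfolded protein response (UPR) raises the expression of this machinery through ATF6 and through the sensor IRE1, encoded by Ern1, which splices the Xbp1 messenger RNA so that it encodes an active transcription factor. The liver secretes most plasma proteins, and its hepatocytes are rich in ER. Feeding is a known physiological stimulus of this machinery in the liver. The array probe of Xbp1 reads total Xbp1 RNA and does not separate the spliced from the unspliced form.

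Many of these genes are known to carry an ER stress element (ERSE) shortly before their start, a sequence with CCAAT at one end and CCACG at the other, bound by NF-Y and ATF6. RefSeq promoter sequences of the GRCm38.p6 build were matched by symbol for 10 of the 10 genes, and the 250 bases before the annotated start were searched on both strands for CCAAT and CCACG with 9 bases between them. In the lines below 4 genes with the motif are followed by 1 gene without it, whose RNA differed most with refeeding. Capitals mark the letters of the motif, which on the opposite strand reads CGTGG, 9 bases and ATTGG.
Hspa5, chr2:34771840-34772089, plus strand: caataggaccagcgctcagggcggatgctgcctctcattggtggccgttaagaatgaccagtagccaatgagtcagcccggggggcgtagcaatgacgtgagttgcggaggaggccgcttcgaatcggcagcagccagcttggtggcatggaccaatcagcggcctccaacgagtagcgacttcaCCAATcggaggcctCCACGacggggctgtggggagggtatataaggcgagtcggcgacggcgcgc
Hsp90b1, chr10:86705445-86705694, minus strand: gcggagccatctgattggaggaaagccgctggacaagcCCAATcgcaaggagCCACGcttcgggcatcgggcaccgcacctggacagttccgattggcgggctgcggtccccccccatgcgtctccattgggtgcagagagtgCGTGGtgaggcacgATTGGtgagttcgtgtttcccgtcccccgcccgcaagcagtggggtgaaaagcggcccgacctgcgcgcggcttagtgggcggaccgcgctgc
Creld2, chr15:88819396-88819645, plus strand: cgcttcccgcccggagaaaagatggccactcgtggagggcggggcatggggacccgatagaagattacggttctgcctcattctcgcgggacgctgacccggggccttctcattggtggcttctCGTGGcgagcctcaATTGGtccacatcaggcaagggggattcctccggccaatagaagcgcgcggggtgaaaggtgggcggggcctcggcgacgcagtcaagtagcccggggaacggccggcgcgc
Dnajc3, chr14:118937682-118937931, plus strand: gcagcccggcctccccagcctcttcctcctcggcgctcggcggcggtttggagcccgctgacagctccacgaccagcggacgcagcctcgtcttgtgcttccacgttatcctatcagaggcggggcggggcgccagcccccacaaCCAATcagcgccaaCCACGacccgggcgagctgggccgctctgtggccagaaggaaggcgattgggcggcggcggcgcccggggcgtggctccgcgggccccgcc
Sdf2l1, chr16:17132384-17132633, minus strand: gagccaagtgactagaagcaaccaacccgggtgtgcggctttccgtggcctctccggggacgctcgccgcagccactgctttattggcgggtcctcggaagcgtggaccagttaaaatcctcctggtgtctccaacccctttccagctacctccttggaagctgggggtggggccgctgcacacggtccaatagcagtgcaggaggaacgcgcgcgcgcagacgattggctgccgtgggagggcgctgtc

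The motif was found before 6 of the 10 genes, namely Hspa5, Hsp90b1, Pdia6, Creld2, Dnajc3 and Calr, and Hsp90b1 held it at 2 places. Of the 27025 genes with a promoter in the same table, 35 held it in the 250 bases before a start, which is 0.13%. The site lay from 65 to 47 bases before the start in Hspa5 and from 162 to 144 bases before it in Calr, where it reads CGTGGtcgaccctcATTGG. In Pdia6 it reads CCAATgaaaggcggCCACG and lay from 98 to 80 bases before the start. None of the 10 windows held the related ERSE-II (ATTGG and CCACG with 1 base between them, in 0.037% of all genes), the UPR element core TGACGTGG (0.603%) or the core TGATGCAA bound by CHOP with ATF4 (0.918%). A match describes the letters only, and a missing match says nothing about binding outside these windows or to other letters.

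**Figure D1:**
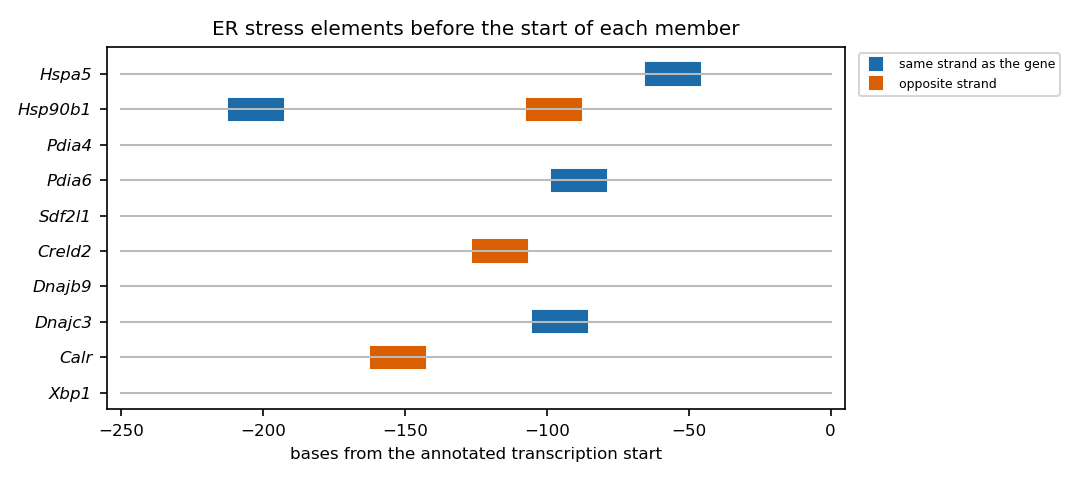
Places of the ERSE letters in the 250 bases before the annotated start of each of the 10 genes, with the distance from the start in bases on the x axis and the strand of the motif by color. Boxes appear for 6 genes, with 2 boxes for Hsp90b1, and the lines of Pdia4, Sdf2l1, Dnajb9 and Xbp1 are empty.

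Levels are given as the log2 of the probe's background-subtracted signal relative to the 75th percentile of all gene spots on the same array, so that 0 is a probe at that percentile. That percentile was 461 on the Cont, 722 on the Drp1LiKO, 357 on the refed Cont and 526 on the refed Drp1LiKO array, and between 48.7% and 58.2% of gene spots on an array were well above background. Each group has 1 array, so no group has a spread between animals, and the number of arrays limits the precision of every value. The standard error (SE) beside a difference comes from the error model of the scanner software and covers measurement only. The targeted gene Dnm1l, which encodes Drp1, was at 1.02 in Cont, 0.81 in Drp1LiKO, 0.66 in refed Cont and 0.54 in refed Drp1LiKO. The place of its probe relative to the deleted exons is not given in the sources used here, so these values do not check the genotype labels.

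Hspa5 encodes BiP, the Hsp70 of the ER lumen, which binds unfolded chains and holds the UPR sensors inactive. Its probe at chr2:34631913-34631972 (mm9 build, as for all probe positions) read 6.28 in Cont, 5.91 in Drp1LiKO, 6.90 in refed Cont and 7.23 in refed Drp1LiKO. Both refed livers were above both livers that were not refed, and the Drp1LiKO liver was the lowest without refeeding and the highest with it. The refeeding difference was 0.62 (SE 0.20) in Cont and 1.32 (SE 0.20) in Drp1LiKO, the latter a 2.50-fold difference. With quantile normalization these fell to 0.31, within 2 SEs of 0, and to 0.82, under 2-fold. Between genotypes Hspa5 differed by -0.37 (SE 0.20) without refeeding and by 0.33 (SE 0.20) after it, Drp1LiKO minus Cont, each within 2 SEs of 0. This depended on the scaling, since the former was -0.43 with median scaling and -0.06 with quantile normalization, and the latter was 0.45 with quantile normalization, past 2 SEs.

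Hsp90b1 encodes GRP94, the Hsp90 of the ER, whose clients include integrins and Toll-like receptors. The probe at chr10:86153770-86153829 read 5.62 in Cont, 5.04 in Drp1LiKO, 5.84 in refed Cont and 6.12 in refed Drp1LiKO. The order of the arrays was that of Hspa5, but Cont and refed Cont lay close together. Their difference of 0.22 (SE 0.20) was within 2 SEs of 0 and turned to -0.02 with quantile normalization, and the refeeding difference in Drp1LiKO was 1.09 (SE 0.20), or 0.66 with that normalization.

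Among the cochaperones, Sdf2l1 works with BiP and an ERdj partner to keep folding intermediates soluble. At chr16:17130426-17130485 it read 1.76 in Cont, 0.82 in Drp1LiKO, 3.15 in refed Cont and 2.96 in refed Drp1LiKO. The refed livers stood far above the others, and the Drp1LiKO liver that was not refed was the lowest of the 4. Sdf2l1 had the largest refeeding differences of the 10 genes in both genotypes, 1.39 (SE 0.20) or 2.63-fold in Cont and 2.14 (SE 0.20) or 4.41-fold in Drp1LiKO, although its promoter window in the lines above has no ERSE by the letters searched.

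Dnajb9 encodes ERdj4, a J-domain cochaperone that brings BiP to IRE1 and is a known Xbp1 target. Of its 2 probes the brighter, at chr12:45307313-45307372, read 2.11 in Cont, 2.21 in Drp1LiKO, 1.90 in refed Cont and 2.74 in refed Drp1LiKO. By this probe the pattern differed from that of Hspa5 and Sdf2l1, since refed Cont was the lowest liver and both Drp1LiKO livers were the highest. Refeeding differences were -0.21 (SE 0.20) in Cont and 0.52 (SE 0.20) in Drp1LiKO, the latter 0.35 with quantile normalization, within 2 SEs of 0. The genotype difference after refeeding was 0.84 (SE 0.20), the largest of the 10 genes in that comparison, and 0.60 with the median over probes. The dimmer probe, at chr12:45308272-45308331, read -1.40, -1.84, -1.34 and -0.98 in the same order of groups, and its order of livers was that of Hspa5. The 2 probes shared the highest liver, refed Drp1LiKO, and disagreed on the sign of the refeeding difference in Cont and on the genotype difference without refeeding, which was 0.10 by the brighter probe and -0.17 by the median over both.

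Dnajc3 encodes p58IPK, another J-domain cochaperone of BiP, known also as an inhibitor of the kinase PERK. At chr14:119378131-119378190 it read 2.51 in Cont, 2.29 in Drp1LiKO, 2.43 in refed Cont and 2.38 in refed Drp1LiKO. All of its 4 pairwise differences by genotype or refeeding were within 2 SEs of 0, the largest being -0.22 (SE 0.20), and the signs of the genotype difference after refeeding and of the refeeding difference in Drp1LiKO changed with the scaling. Dnajc3 is thus a gene with an ERSE before its start whose RNA lay at about 1 level on the 4 arrays.

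The enzymes of disulfide bond formation and exchange were represented by Pdia4 (ERp72) and Pdia6 (P5). Pdia4, at chr6:47746516-47746575, read 1.95 in Cont, 1.37 in Drp1LiKO, 2.65 in refed Cont and 2.47 in refed Drp1LiKO. The brighter probe of Pdia6, at chr12:17291070-17291129, read 5.84, 5.10, 6.42 and 6.12 in the same order. Both genes were highest in refed Cont and lowest in Drp1LiKO, with refed livers above the others. For Pdia4 the refeeding difference was 0.69 (SE 0.20) or 1.62-fold in Cont and 2.15-fold in Drp1LiKO, and for Pdia6 it was 0.58 (SE 0.20) in Cont and 1.02 (SE 0.20) in Drp1LiKO. In the authors' table those of Pdia6 were 0.31, within 2 SEs of 0, and 0.59. Without refeeding they were lower in Drp1LiKO by more than 2 SEs, with differences of -0.58 (SE 0.20) for Pdia4 and -0.74 (SE 0.20) for Pdia6, the latter -0.45 with quantile normalization. The dimmer Pdia6 probe, at chr12:17291323-17291382, read 1.32, 0.69, 1.72 and 1.41, which is the same order of livers.

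Creld2 encodes a secreted and ER-resident protein with disulfide isomerase activity that is induced by ER stress. Its probe at chr15:88656997-88657056 is printed 10 times on the array, and the repeated spots had an SD between 0.03 and 0.04 on the log2 scale on each array. It read 4.86 in Cont, 4.47 in Drp1LiKO, 6.08 in refed Cont and 6.40 in refed Drp1LiKO. As for Hspa5, the Drp1LiKO liver was the lowest without refeeding and the highest with it, but the genotype differences of -0.39 (SE 0.20) and 0.31 (SE 0.20) were within 2 SEs of 0. Here too the scaling mattered, with -0.45 for the former under median scaling and -0.15 under quantile normalization, and 0.42 for the latter under quantile normalization. Refeeding differences were 1.22 (SE 0.20) or 2.33-fold in Cont and 1.92 (SE 0.20) or 3.80-fold in Drp1LiKO.

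Calr encodes calreticulin, a lectin chaperone of glycoproteins that also binds calcium in the ER. Its probe at chr8:87366192-87366251 read 4.71 in Cont, 3.47 in Drp1LiKO, 5.07 in refed Cont and 4.74 in refed Drp1LiKO. The Drp1LiKO liver that was not refed stood apart below the other 3. This gave Calr the only genotype difference of at least 2-fold among the 10 genes, -1.24 (SE 0.20) or 2.36-fold lower in Drp1LiKO without refeeding. After refeeding it was -0.33 (SE 0.20), and the refeeding difference was 0.36 (SE 0.20) in Cont and 1.27 (SE 0.20) in Drp1LiKO. With quantile normalization the Cont value fell to 0.11, and in the authors' table the Drp1LiKO value lay just under 2-fold.

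Xbp1 was read at chr11:5425816-5425875 as 5.60 in Cont, 5.34 in Drp1LiKO, 6.46 in refed Cont and 5.95 in refed Drp1LiKO. Total Xbp1 RNA was higher in both refed livers, and by genotype it was lower in Drp1LiKO. The genotype differences were -0.51 (SE 0.20) after refeeding and -0.26 (SE 0.20) without it. With quantile normalization the former shrank to -0.35, within 2 SEs of 0, and the latter turned to 0.05. The refeeding difference was 0.86 (SE 0.20) in Cont and 0.61 (SE 0.20) in Drp1LiKO, and the latter fell to 0.19 with quantile normalization, within 1 SE of 0. Xbp1 was the only one of the 10 genes with the smaller refeeding difference in Drp1LiKO.

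**Figure D2:**
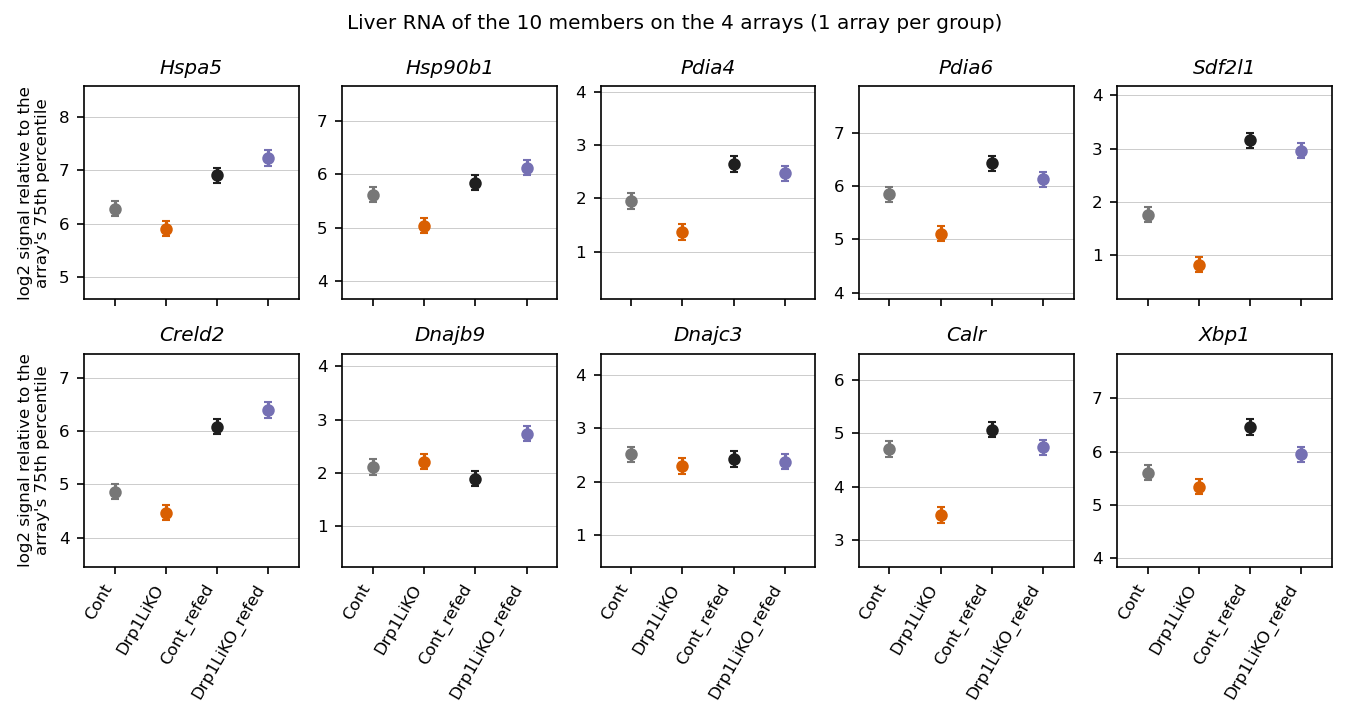
Log2 signal of each of the 10 genes minus the log2 of the array's 75th percentile, with 1 point per array and the measurement SE as error bar; the y axes differ in position and have the same span. In 8 panels both refed arrays lie above both others, and the exceptions are Dnajb9 and Dnajc3.

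Taken by comparison, refeeding was examined within each genotype, on pairs of arrays that share none with each other. In Cont, 8 of the 10 genes were higher after refeeding, against 58.6% of the 16438 genes measured on at least 1 of the 2 arrays, and the sign of Hsp90b1 turned with quantile normalization. At least 2-fold higher were 2 of them, Sdf2l1 and Creld2, against 4.47% of all genes, and 0 were at least 2-fold lower, against 5.83%. Quantile normalization left 1 of the 2, with Creld2 at 0.95. The median difference over the 10 genes was 0.60, beside 0.11 over the genes measured on all 4 arrays. In Drp1LiKO, 10 of 10 were higher, against 55.3% of 18329 genes, and the sign of Dnajc3 turned with quantile normalization. Here 7 were at least 2-fold higher, against 5.61%, and 0 at least 2-fold lower, against 7.15%, with a median of 1.09 beside 0.12. The 7 genes were Hspa5, Hsp90b1, Pdia4, Pdia6, Sdf2l1, Creld2 and Calr, and their number was 4 with quantile normalization, which lost Hspa5, Hsp90b1 and Pdia6. It was also 4 with a percentile taken over probes detected on all arrays, and 3 in the authors' table. Both refed arrays were above both other arrays in 8 of the 10 genes and in 27.6% of all genes measured on every array. The count of 8 is for the main scaling, since with quantile normalization refed Cont lay below Cont for Hsp90b1 (-0.02). The same normalization also put refed Drp1LiKO below Cont for Calr, so the count loses Calr as well as Hsp90b1. There the shortfall of Drp1LiKO against Cont without refeeding was slightly larger than the refeeding difference in Drp1LiKO. With the main scaling, refed Drp1LiKO lay close to Cont for Calr, just above it (4.74 and 4.71).

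The genotype comparisons also share no array with each other, but each shares its arrays with the refeeding comparisons. Without refeeding, 9 of the 10 genes were lower in Drp1LiKO, and 1, Dnajb9, was higher, against 43.7% higher among 18040 genes. The sign of Dnajb9 turned with the median over probes and that of Xbp1 with quantile normalization. At least 2-fold lower was 1 gene, Calr, against 5.19% of all genes, and 0 were at least 2-fold higher, against 8.06%. The median over the 10 genes was -0.49, beside -0.12 over all genes measured on every array. The differences of Hsp90b1, Pdia4, Pdia6, Sdf2l1 and Calr exceeded 2 SEs, but that of Hsp90b1 fell to -0.28 with quantile normalization, within 2 SEs. After refeeding 4 genes were higher and 6 lower, against 46.1% higher among 17446 genes, and the sign of Dnajc3 turned with the scaling. In that comparison 0 were at least 2-fold higher, against 8.05%, and 0 at least 2-fold lower, against 6.33%, and the median was -0.11 beside -0.08. After refeeding the group median thus lay near that of all genes, with single genes on either side, from -0.51 in Xbp1 to 0.84 in Dnajb9.

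Why the signs of single genes turned with the scaling was not tested. The scaling also moved the median difference of all genes, by over 0.1 in the comparisons given next. Across the scalings that median ranged from -0.18 to 0.04 in the genotype comparison without refeeding and from -0.06 to 0.21 in the refeeding comparison of Drp1LiKO. Set against the median gene, the median of the 10 genes was -0.37 without refeeding and -0.03 after refeeding between genotypes, and 0.49 in Cont and 0.98 in Drp1LiKO for refeeding. With quantile normalization these 4 values were -0.20, -0.02, 0.26 and 0.70. By the same reading, Hspa5 lay 0.51 above the median gene for refeeding in Cont and 1.21 above it in Drp1LiKO, and Sdf2l1 lay 1.28 and 2.03 above it.

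**Figure D3:**
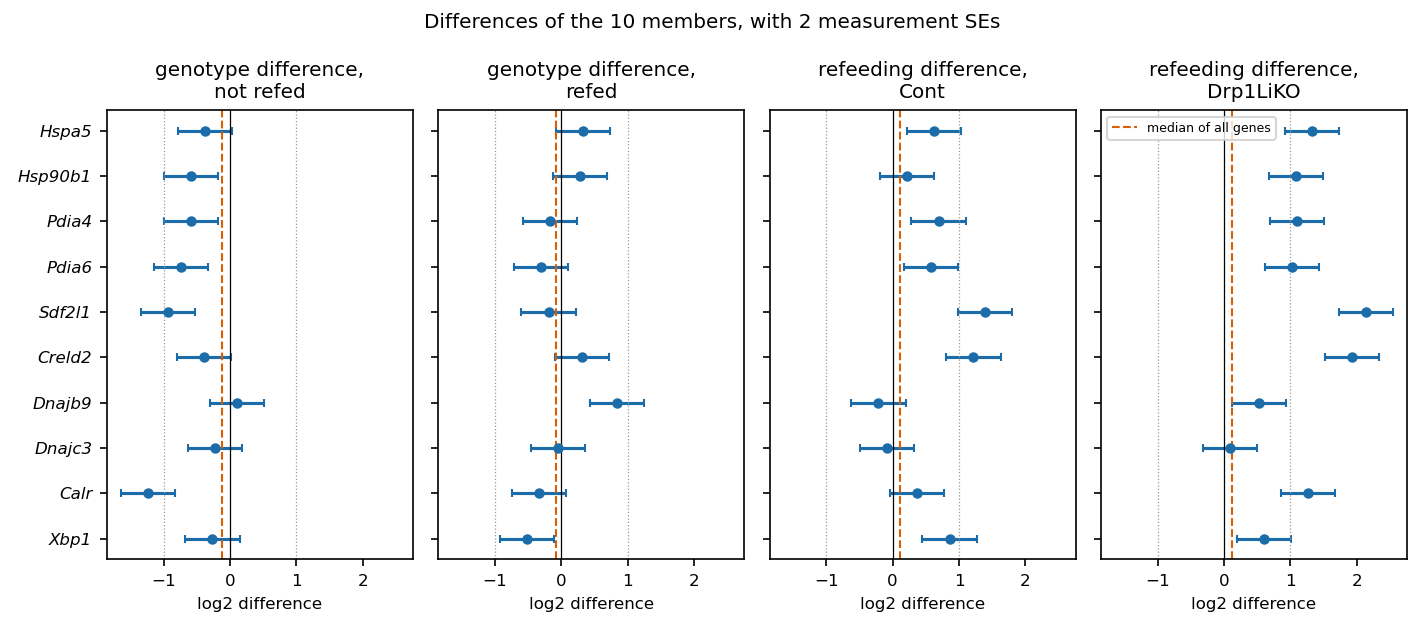
Log2 differences of the 10 genes in the 4 comparisons, with 2 measurement SEs as error bars, the median of all genes measured on every array as a dashed line and 2-fold differences as dotted lines. Refeeding differences in Drp1LiKO lie to the right of the dashed line for 9 genes, with Dnajc3 just to its left.

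The refeeding difference in Drp1LiKO minus that in Cont, on the log2 scale, was above 0 for 9 of the 10 genes, against 54.5% of the 14449 genes measured on every array, whose median was 0.04. It was 0.91 for Calr, 0.87 for Hsp90b1, 0.75 for Sdf2l1, 0.74 for Dnajb9, 0.71 for Creld2 and 0.70 for Hspa5, each with an SE of 0.29. These 6 genes were more than 2 SEs above 0, against 5.84% of all genes, but Hspa5 and Creld2 fell within 2 SEs with quantile normalization, which leaves 4. The other 4 were within 2 SEs, with 0.44 for Pdia6, 0.41 for Pdia4, 0.17 for Dnajc3 and -0.25 for Xbp1. No scaling or probe choice tried changed the sign for any of the 10, and the value of Hspa5 ranged from 0.51 to 0.81 over them. With 1 array per group this difference of differences uses up all degrees of freedom, and it was not tested. The Drp1LiKO liver that was not refed enters this value as well as the refeeding difference of Drp1LiKO and the genotype difference without refeeding. With the main scaling it was the lowest of the 4 for 9 of the 10 genes, against 39.3% of all genes, and the exception was Dnajb9. With quantile normalization it was no longer the lowest for Xbp1, which was 0.05 above Cont, nor for Dnajc3, whose refeeding difference in Drp1LiKO was -0.08. With the median over probes it was the lowest for Dnajb9 too, at -0.17 relative to Cont. The refed Drp1LiKO liver was the highest for 4 genes (26.4% of all genes) and the refed Cont liver for 5 (35.7%).

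**Figure D4:**
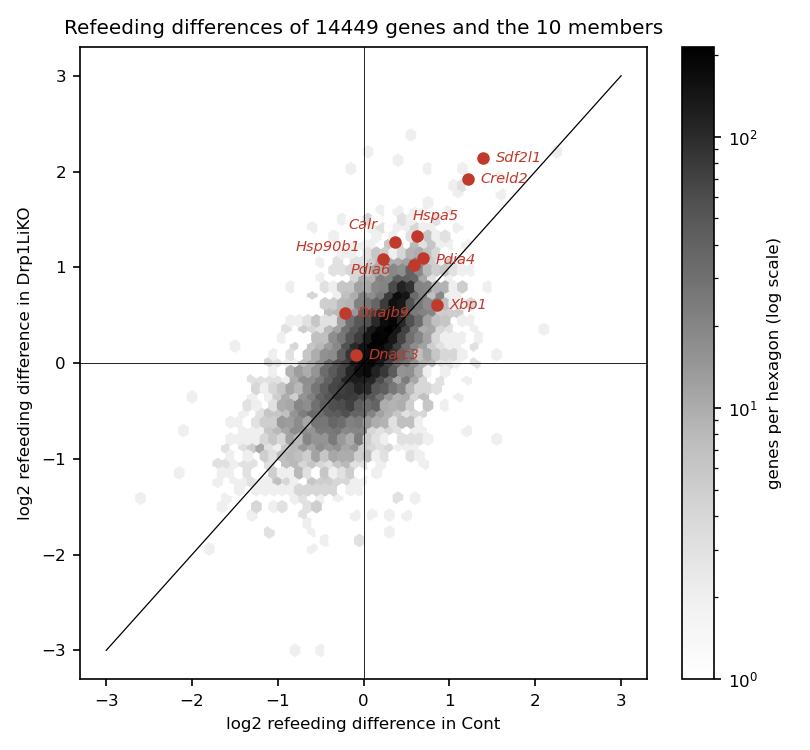
Log2 refeeding difference in Cont on the x axis and in Drp1LiKO on the y axis for the 14449 genes measured on every array, as counts per hexagon, with the 10 genes as points and the line of equal differences; values beyond 3 are drawn at 3. The points lie above the line for 9 genes, and Xbp1 lies below it.

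The main test was an additive fit of genotype plus feeding state by limma, which has 1 residual degree of freedom and treats any unequal response to refeeding as error. For refeeding, 0 of the 10 genes and 0 of the 16744 genes tested (0%) had a Benjamini-Hochberg adjusted p under 0.05, while at an unadjusted p under 0.05 there were 6 of the 10 and 4414 of all genes. Sdf2l1 had an effect of 1.77 (SE 0.24), an adjusted p of 0.169 by limma and a higher level after refeeding in both genotypes. For Creld2 the effect was 1.57 (SE 0.23), for Hspa5 0.97 (SE 0.23), for Pdia4 0.90 (SE 0.18) and for Xbp1 0.73 (SE 0.15), each with the same adjusted p of 0.169 by limma, the smallest that any gene reached. For genotype, 0 of the 10 and 0 of all genes (0%) passed, and at an unadjusted p under 0.05 there were 0 of the 10 and 4746 of all genes. Fitted only to genes measured on every array, the model called 1188 genes for genotype and 12 for refeeding, with an intensity trend it called 474 and 0, and with 1 factor alone, which leaves 2 residual degrees of freedom, 1 and 0, in each case with 0 of the 10. The genotype effects of the 10 genes ranged from -0.78 in Calr to 0.47 in Dnajb9, with adjusted p-values from 0.181 to 0.957 by limma.

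Other genes of the secretory pathway were examined in lists by role. Of the UPR sensors, 4 of 5 were measured. Their refeeding differences ranged from -0.34 to 0.32 in Cont, which overlapped the range of the 10 genes (-0.21 to 1.39). In Drp1LiKO they ranged from -0.46 to 0.25, beside 0.08 to 2.14 for the 10 genes. The medians of the sensors were 0.01 in Cont, which turned below 0 with median scaling, and -0.12 in Drp1LiKO. In any comparison 0 sensors were at least 2-fold different. Eif2ak3, which encodes PERK, had the largest genotype difference among them, 0.66 (SE 0.21) without refeeding and 0.55 after it. Among 14 other ER chaperones and cochaperones, 13 were higher after refeeding in Cont (median 0.39) and 14 in Drp1LiKO (median 0.59), with 1 and 4 at least 2-fold higher, and quantile normalization lowered these medians to 0.19 and 0.35. By genotype 11 of the 14 were lower in Drp1LiKO without refeeding (median -0.46) and 10 after it (median -0.27), with -0.23 and -0.11 under quantile normalization, while the only genotype difference of at least 2-fold was 1 gene higher in Drp1LiKO after refeeding. Manf, a secreted factor of the ER stress response, was at 2.98 in Cont, 2.41 in Drp1LiKO, 4.05 in refed Cont and 4.27 in refed Drp1LiKO, which is the order of livers seen for Hspa5 and Creld2. Its refeeding differences were 1.08 and 1.86.

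The degradation of misfolded ER proteins was represented by 14 genes, of which 11 were higher after refeeding in Cont and 11 in Drp1LiKO, with medians of 0.34 and 0.32, and 11 were lower in Drp1LiKO in each genotype comparison, with medians of -0.33 and -0.24. With quantile normalization these 4 medians were 0.23, 0.14, -0.15 and -0.12. Derl3, which encodes a component of the retrotranslocation machinery, was at 1.55 in Cont, 0.97 in Drp1LiKO, 3.85 in refed Cont and 2.65 in refed Drp1LiKO. Its refeeding difference of 2.29 in Cont and 1.68 in Drp1LiKO was larger than that of Sdf2l1 in the former and smaller in the latter, and like Xbp1 it was lower in Drp1LiKO after refeeding, by -1.20 (SE 0.20). Of 12 disulfide oxidoreductases, 11 were higher after refeeding in Cont and 10 in Drp1LiKO, with medians of 0.30 and 0.36 (0.14 and 0.27 with quantile normalization). At least 2-fold different were 1 gene higher with refeeding in Cont and 1 lower in Drp1LiKO after refeeding, each with the dimmer liver not well above background. Qsox1 had the largest genotype difference of those measured on every array, -0.84 (SE 0.20) without refeeding.

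The list medians of genes of protein entry, glycosylation and export also lay above the median gene after refeeding. They did so by smaller amounts than the median of the 10 genes in Drp1LiKO. For the 17 genes of the translocon and signal peptide processing the medians were 0.44 in Cont and 0.46 in Drp1LiKO, for the 11 of N-glycosylation 0.40 and 0.52, and for the 10 of COPII transport, which carries cargo from the ER to the Golgi, 0.30 and 0.31. Higher after refeeding were 14 of the 17 translocon genes in Cont and 15 in Drp1LiKO. For N-glycosylation these counts were 11 and 10 of 11, and for COPII transport 10 and 9 of 10. Across these lists 1 gene, of the translocon list in Drp1LiKO, was at least 2-fold higher after refeeding and 0 were at least 2-fold lower. Without refeeding their genotype medians were -0.19, -0.32 and -0.03, and after it -0.08, -0.26 and -0.05, of which those of COPII transport turned above 0 with quantile normalization (0.10 and 0.06), as did that of the translocon list after refeeding, while without refeeding that of the translocon list came within 0.01 of 0 and that of N-glycosylation shrank to -0.06. The 6 refeeding medians fell as well, to between 0.16 and 0.34. Sec61b of the translocon channel differed by -0.65 (SE 0.20) between genotypes without refeeding, the oligosaccharyltransferase subunit Rpn1 by -0.67 (SE 0.20) and Arfgap3 of the COPII list by 0.87 (SE 0.22).

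Chaperones of other compartments in part had the patterns of the ER genes. The 9 cytosolic heat shock chaperones had a median refeeding difference of -0.06 in Cont, which became 0.01 with the median over probes, and 0.55 in Drp1LiKO, which became 0.12 with quantile normalization. Of the 8 measured on every array, 3 had the order of livers of Hspa5 and 7 had the larger refeeding difference in Drp1LiKO, as 9 of the 10 ER genes and 54.5% of all genes did. The share of all genes with the order of Hspa5 was not counted, so counts of genes with that order have no background. Drp1LiKO was the lowest liver for 39.3% of all genes and refed Drp1LiKO the highest for 26.4%. By genotype 8 of the 9 were lower in Drp1LiKO without refeeding (median -0.27, or -0.001 with quantile normalization). After refeeding all 9 were higher (median 0.35, or 0.49 with that normalization), where the median of the 10 ER genes was -0.11. Hspa1a, an inducible Hsp70, was lower after refeeding, at least 2.67-fold in Cont, where the refed liver was not well above background, and by -1.70 in Drp1LiKO. The median of the 8 mitochondrial chaperones was 0.16 in Cont and 0.37 in Drp1LiKO, and both turned below 0 with quantile normalization (to -0.06 in Drp1LiKO), and 2 of them had the order of Hspa5. Hspa9 had their largest genotype difference, 0.45 without refeeding and 0.52 after it. The 10 targets of PERK and ATF4 were mostly higher in Drp1LiKO, 9 of them without refeeding and 8 after it, with medians of 1.45 without refeeding and 2.51 after it, and 5 and 6 genes at least 2-fold higher in Drp1LiKO. Atf3 (5.58 and 4.42), Nupr1 (5.21 and 4.51), Trib3 (4.02 and 3.43) and Asns (3.78 and 3.65) had the largest differences on average over the 2 comparisons, and the median refeeding differences of the list were 0.14 in Cont and 0.16 in Drp1LiKO, the latter -0.18 with quantile normalization.

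**Figure D5:**
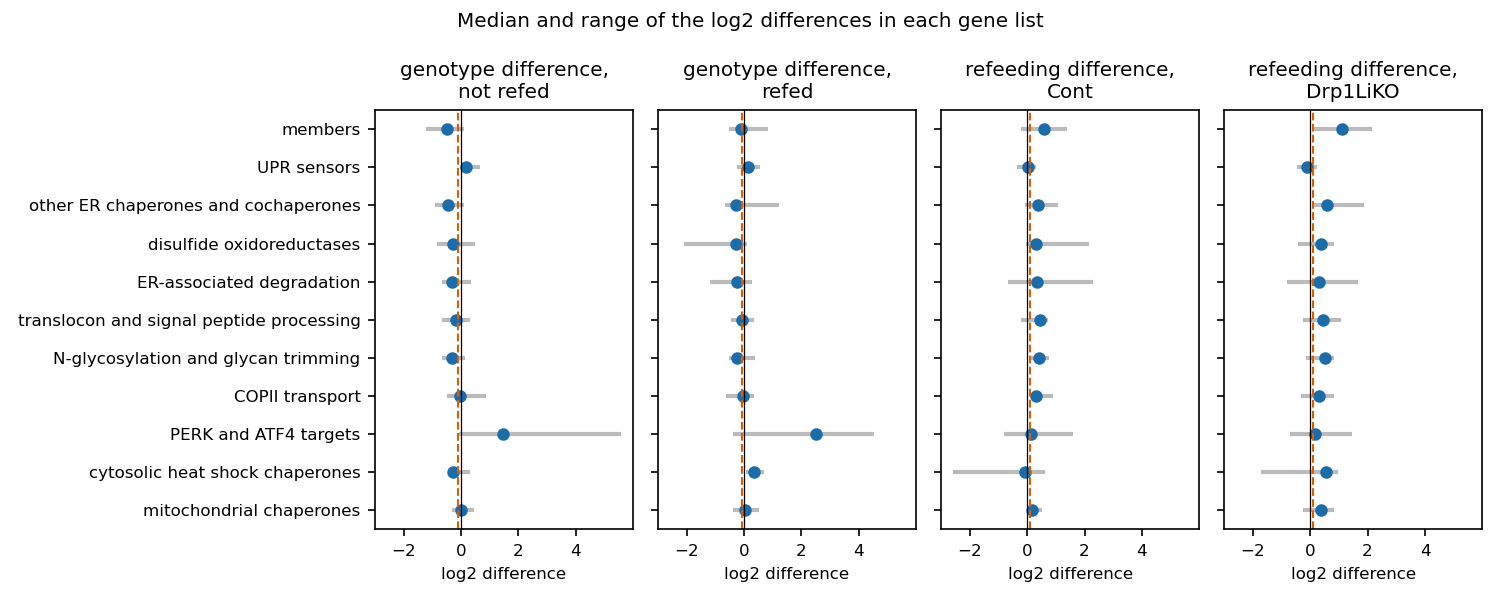
Median (point) and range (bar) of the log2 differences in each gene list, cell type markers left out, for the 4 comparisons, with the median of all genes measured on every array as a dashed line. For refeeding in Drp1LiKO the 10 genes, plotted as members, have the highest median of the lists drawn, 1.09, and for genotype the PERK and ATF4 targets have the highest, 1.45 and 2.51.

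Genes with the ERSE letters were also compared outside the 10 genes, a set formed after the values were seen. Of 29 such genes 15 had a usable signal on an array, among them Canx, Derl3, Ero1b and Syvn1 of the lists above. Their median refeeding difference was 0.14 in Cont and 0.23 in Drp1LiKO, beside 0.09 and 0.08 over all genes measured on at least 1 of the 2 arrays compared. The 6 genes with the motif among the 10 had medians of 0.47 and 1.18, and the 4 without it had 0.78 and 0.85.

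Likeness of pattern was measured over the 4 arrays as the root mean square distance between values centred on each gene's mean, among 14439 other genes measured on every array. Closest to Hspa5 were Tubb4b, a beta tubulin, at a distance of 0.04 on the log2 scale, then Nol12 and BC098458, Ppil1, and a transcript without a gene symbol at 0.06. Closest to the median pattern of the 10 genes was Sec61g, a subunit of the translocon channel, at 0.03, followed by Zkscan1, Urad, LOC632883 and Tkfc at up to 0.05. Of the 10 genes themselves Pdia4 lay nearest to that pattern, at 0.03, and Dnajb9 farthest, at 0.56.

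Whole liver RNA was measured, in which fewer cells of a type and less RNA per cell cannot be told apart. All 6 hepatocyte markers were well above background on every array, with a summed signal, relative to the 75th percentile, of 2284 in Cont, 1586 in Drp1LiKO, 2849 in refed Cont and 1971 in refed Drp1LiKO. The sum moved the same way as most of the 10 genes by genotype without refeeding and by refeeding, but Tat and Cps1 of the list went the other way in each, and with quantile normalization the list's median turned from -0.34 to 0.14 by genotype without refeeding and below 0 for refeeding in either genotype. Serpina1a, whose probe was the brightest of the list on average, went from 894 to 562 and from 1121 to 749 between Cont and Drp1LiKO. Before scaling its signal was nearly level, so these steps reflect the percentiles of the arrays. It was 411767 in Cont, 405373 in Drp1LiKO, 400038 in refed Cont and 393737 in refed Drp1LiKO. The sums of all markers were divided by the same percentiles, which were 461, 722, 357 and 526 in that order. The 8 macrophage markers summed to 79.8, 85.0, 84.2 and 129 in that order of groups, with Cd5l as the brightest, and 6 of the 8 were higher in Drp1LiKO without refeeding and 8 after it, with Lyz2, Trem2 and Gpnmb at least 2-fold higher in both. The 5 endothelial markers summed to 23.4, 17.3, 27.3 and 17.0, with Kdr as the brightest, although 3 of these 5 were higher in Drp1LiKO without refeeding. Neutrophil markers summed to 5.03, 2.66, 5.29 and 9.41 over 6 genes, led by S100a9 and with Ngp not well above background on any array. By genotype without refeeding and by refeeding in Drp1LiKO they moved the same way as most of the 10 genes. Of the 5 measured, 4 were lower in Drp1LiKO without refeeding (median -1.04), 3 of them at least 2-fold. For refeeding in Drp1LiKO 4 were higher (median 1.60), 3 of them at least 2-fold. By genotype after refeeding they went the other way, with 4 higher in Drp1LiKO (median 0.73), where 6 of the 10 genes were lower (median -0.11). For refeeding in Cont 4 were higher with a median of 0.17, beside 0.60 for the 10 genes. S100a8, S100a9 and Camp had the order of livers of Hspa5, whereas Retnlg was lowest in refed Drp1LiKO. The sums of the 6 stellate cell and fibroblast markers, led by Col1a2, were 2.33, 5.19, 3.18 and 3.23, and those of the 5 cholangiocyte markers, led by Spp1 and with Epcam not well above background, were 0.496, 1.08, 0.636 and 1.02. Of the plasma and B cell markers 5 were measured, 3 of them on every array, and all 5 were higher after refeeding in either genotype. Their refeeding medians were 0.89 in Cont and 0.94 in Drp1LiKO (0.54 and 0.57 with normexp). By genotype 5 were higher in Drp1LiKO without refeeding and 4 after it, with medians of 0.58 and 0.53. With normexp these genotype medians were -0.08 and 0.08. The part of cell composition in the differences of the 10 genes was not tested.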

How the data were processed

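Liver RNA was measured on 4 Agilent arrays, 1 per group, all on 1 slide and in 1 scan per the file headers. The intensity values are processed signals deposited by the authors, with the background subtracted within each array by Feature Extraction 10.7.1.1 per the file headers (9.5.1.1 in the submitters' processing notes). They are linear and not normalized between arrays. The intensities in the authors' table, put on the log2 scale here, matched a quantile normalization of these signals and served as an alternative. The array design and RNA kit in the methods differ from those in the labels, and the files carry the labels' design.

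Outlier spots were left out, signals were put on the log2 scale relative to the 75th percentile of the gene spots, and spots of a probe were averaged. A gene was read from its probe well above background on the most arrays, then the one with the highest mean signal. Probes were renamed by RefSeq accession (26761 of 28389 matched). Called changed means at least 2-fold with the brighter signal well above background. Where the dimmer side was not well above background, "at least" gives a bound, computed with the dim signal set to the array's lowest detected signal or, if brighter, to its measured value. With 1 array per group, differences have no test. The additive limma model was fitted to the 16744 genes detected on 2 or more arrays, with Benjamini-Hochberg adjustment over all of them, and checked on simulated data.

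The genes and lists were chosen with earlier results of these data known. Named are all 10 genes, and of each other list up to 4 genes called in both genotype or both refeeding comparisons in the same direction, or else the gene with the largest genotype difference. The 15 other genes with the ERSE letters were chosen after their values were seen. Alternatives were other scalings, normexp correction of the background (offset 50), the authors' table, the median over probes, other filters, a 1.5-fold threshold, and for limma an intensity trend or 1 factor alone. Software was Python 3.11.15 with numpy 2.4.6 and pandas 2.3.3, and R 4.3.3 with limma 3.58.1.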

Additional observations from a re-analysis of the deposited data

How the results depend on the processing

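Of 240 single differences of the 10 genes recomputed under the 6 alternative scalings and probe choices, 203 moved by less than 1 measurement SE and 37 by more. In 5 of the 40 differences the sign changed under at least 1 alternative, and 0 of the differences of at least 2-fold changed sign. Quantile normalization and the authors' table moved the medians over the 10 genes most: the genotype median without refeeding to -0.22 under each, the refeeding median in Cont to 0.31 under each, and that in Drp1LiKO to 0.74 under each. The cause was not tested. The number of the 10 genes at least 2-fold higher after refeeding in Cont became 1 under each of these, and in Drp1LiKO it became 4 with quantile normalization, 3 with the authors' table and 4 with the 75th percentile over probes detected on all arrays. With a 1.5-fold threshold, 3 of the 10 genes were lower in Drp1LiKO without refeeding (13.8% of all genes) and 1 was higher after refeeding (14.8%). With refeeding 5 were higher in Cont (10%) and 8 in Drp1LiKO (17.5%).

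Over all genes, the additive genotype effect was called in 1188 genes (457 higher, 731 lower) when only genes well above background on all arrays were fitted, in 474 with an intensity trend, and in 1 without feeding state in the model. The additive refeeding effect was called in 12 genes in the first of these. None of the 10 genes was among those called in any of these fits. The split of all calls into higher and lower also depended on the setting. With normexp it was 358 higher and 569 lower between genotypes without refeeding (main values 1454 and 936), 363 and 709 after refeeding (1404 and 1105), 439 and 287 for refeeding in Cont (735 and 958) and 501 and 387 in Drp1LiKO (1028 and 1311). With the percentile over probes detected on all arrays it was 1771 and 686 between genotypes without refeeding, and 787 and 1760 for refeeding in Drp1LiKO. Leaving out an array was not run, because the additive fit would keep no residual degree of freedom. No paired analysis was possible because each group has 1 array, so that the groups share no 2 replicate numbers. Signals of the 10 genes lie well above background on every array, so dimness does not limit them; the single array per group does.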
